A study of Homo sapiens with 6 samples.

Results

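IFIT1, IFIT2, IFIT3, DDX58, DDX60L and OAS1 are 6 genes that cells switch on in response to interferon, and of a list of 52 interferon-induced RNA sensors and effectors they were the only ones among the 414 genes that the authors listed as changed when LATS1/2-KO KLE cells were set against their parental cells. They were picked by symbol from that list, so the comparison between the 2 groups had already chosen them. Their values in that comparison are therefore descriptions and, where a fit over the whole table called some of them, those calls are not evidence for them.

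KLE is an established human endometrial carcinoma cell line. RNA-seq was carried out on 3 libraries of parental KLE cells (genotype WT) and 3 libraries of KLE cells lacking LATS1 and LATS2, the kinases of the Hippo pathway that phosphorylate YAP and TAZ. The labels give no interferon, cytokine or drug treatment for either group. The knockout cells had been transfected with pX459 plasmids carrying Cas9 and guide RNAs, selected with puromycin and grown out by limiting dilution from single cells, and the names of the sequenced knockout libraries carry 1 guide for LATS1 and 1 for LATS2. The knockout libraries therefore stand for 1 guide pair, and whether they came from 1 such lineage or from several is not given in the sources used here. A difference from the parental population cannot be told apart from a difference between the lineage or lineages picked and other KLE cells. Nothing in the labels says that the libraries of a group came from separate cultures, so the spread between them may be technical. The targeted genes LATS1 and LATS2 were not analysed here.

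Interferons are secreted when a cell detects viral or misplaced nucleic acid, and they act through receptors, JAK kinases and STAT and IRF transcription factors on genes that carry an interferon-stimulated response element. Among the products of those genes, DDX58 (RIG-I) is a helicase that recognises double-stranded and 5′-triphosphate RNA and signals for more interferon. The IFIT proteins bind foreign or unusually capped RNA and block its translation, and OAS1 makes 2′-5′-linked oligoadenylates that activate the RNA-degrading enzyme RNase L.

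The response element has a core made of GAAA, any 2 bases and GAAA again, and the promoters are shown because the 6 genes went in opposite directions although all are counted as interferon-induced. RefSeq promoters (GRCh38.p14, 250 bases before each start searched on either strand) were found for 5 of the 6 genes, with 2 starts for IFIT3 and with DDX58 under its newer symbol RIGI. In the lines that follow, each sequence is written 5′ to 3′ on the strand of its gene and capitals mark matches, on either strand, to a looser form of the core that allows any base at its second position. The looser form includes every match to the strict core and was chosen after the DDX58 and OAS1 promoters had been seen. A match on the opposite strand reads as TTTC at its left end.
IFIT1 (chr10:89392477-89392535, plus strand): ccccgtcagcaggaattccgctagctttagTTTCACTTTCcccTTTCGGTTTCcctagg
IFIT3, upstream start (chr10:89327811-89327890, plus strand): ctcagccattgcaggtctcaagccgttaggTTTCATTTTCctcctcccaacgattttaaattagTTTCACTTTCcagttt
IFIT3, downstream start (chr10:89332405-89332493, plus strand): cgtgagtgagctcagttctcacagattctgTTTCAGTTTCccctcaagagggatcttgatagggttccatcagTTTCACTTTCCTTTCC
DDX60L (chr4:168480527-168480602, minus strand): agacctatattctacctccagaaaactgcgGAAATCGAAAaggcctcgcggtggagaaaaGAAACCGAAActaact
DDX58 (chr9:32526381-32526410, minus strand): cggtgcggagGGAAACGAAActagcccgag
OAS1 (chr12:112906934-112906961, plus strand): tcccttctgaGGAAACGAAAccaacagc

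The strict core was present in 4 of these 6 promoters, with 8 matches, against 3.02% of the 35116 RefSeq promoters searched in the same way. IFIT1 carried it 116 and 103 bases upstream of its start and DDX60L 80 and 50 bases upstream. IFIT3 carried it at 156 and 122 bases upstream of the first start and at 94 and 51 bases upstream of the second. The strict core was not found in the windows of DDX58 and OAS1. The looser form was present in 6 of 6 promoters, against 6.86% of all promoters, and its match in DDX58, 204 bases upstream, and in OAS1, 18 bases upstream, was the same 10 letters, GGAAACGAAA. A match describes the sequence and does not show that a factor was bound. The windows of OAS1 and of the second IFIT3 start reach into first exons of other annotated isoforms. All 6 searched windows overlap the annotated span of their gene, and those of DDX60L and of the second IFIT3 start lie wholly inside it. The distances given hold for the RefSeq starts only.

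Counts summed over the 414 genes were 4064052, 3252765 and 3008692 in parental replicates 1, 2 and 3 and 1862422, 613161 and 1180727 in LATS1/2-KO libraries 5, 6 and 7, numbered as in their count columns. The depth of the whole libraries is unknown, because the table lists 414 genes, and library 6 had the fewest listed counts. Counts were divided by a library scale factor to give scaled counts, in which a gene that did not change should have the same value in both groups. Parental replicate 1 stood apart from the other parental libraries: of 323 genes with at least 50 counts in a parental library, 159 (49.2%) were more than 1.5-fold higher or lower there than the mean of replicates 2 and 3. Some differences were far larger, as for GLUL, with 37245 counts in replicate 1 against 487 and 431 in replicates 2 and 3. The fold changes and calls of the 6 genes are therefore given with and without that library.

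The 5 genes of the IFIT and helicase families were higher in LATS1/2-KO cells, by 2.29-fold to 3.95-fold in mean scaled count, and OAS1 was 4.12-fold lower. Without parental replicate 1 the same 5 genes were 2.11-fold to 3.98-fold higher and OAS1 was 3.23-fold lower. With TMM scaling over the listed genes the directions were the same, but the log2 fold changes were 1.87 to 2.65 for the 5 genes and -1.37 for OAS1. For all 6 genes the 3 parental and 3 knockout scaled counts did not overlap, with 5 genes higher and 1 lower. The same held for 80% of the 414 genes of the table, 35.7% as higher and 44.2% as lower, and without parental replicate 1 for 96.6%, 51% as higher and 45.7% as lower. The scale between groups was set without parental replicate 1, so the larger share without it is no evidence for the genes. In bulk RNA, a change in the share of cells that express a gene and a change in RNA per cell cannot be told apart.

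**Figure D1:**
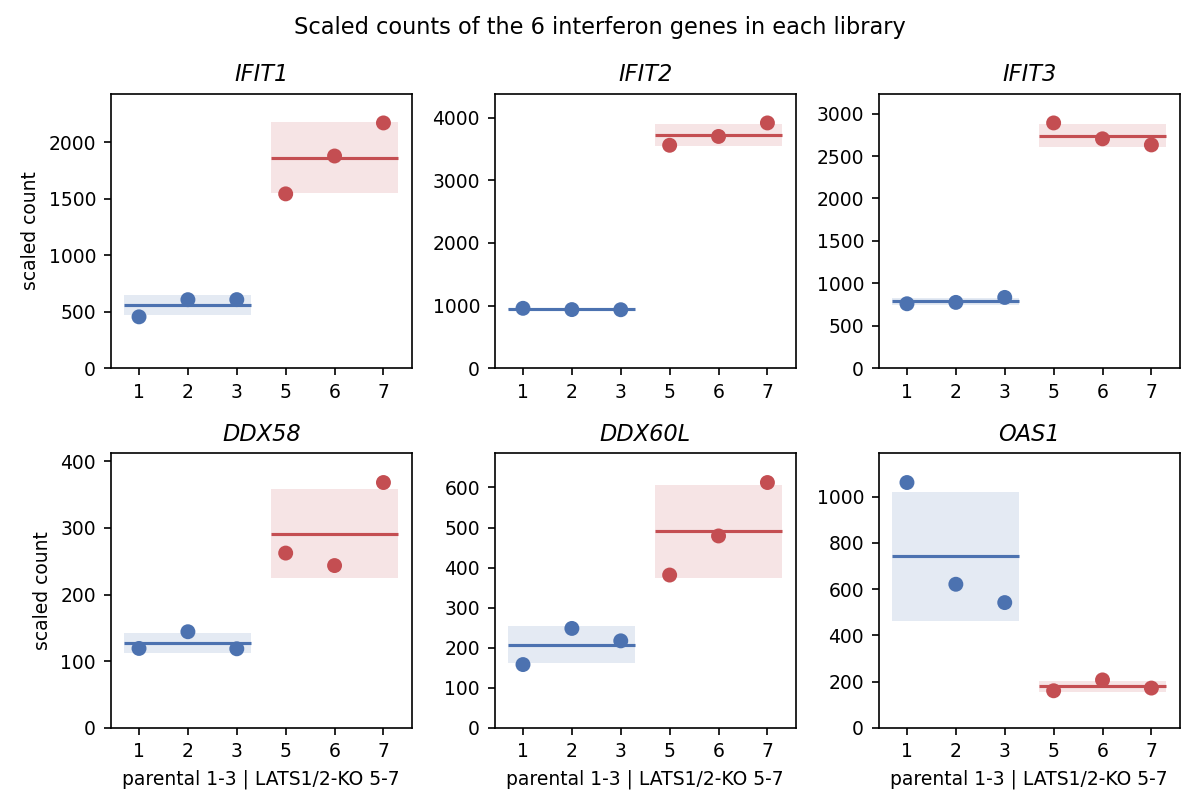
Scaled counts (counts divided by the library scale factor, linear axes from 0) of the 6 genes in parental replicates 1 to 3 (blue) and LATS1/2-KO libraries 5 to 7 (red); the line is the group mean and the band 1 SD (n = 3). The knockout libraries lie above every parental library for IFIT1, IFIT2, IFIT3, DDX58 and DDX60L and below every parental library for OAS1, in which parental replicate 1 reached 1061 scaled counts.

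IFIT2, which binds AU-rich RNA and has been linked to cell death, had the most uniform values. Its scaled counts were 956, 936 and 934 in parental replicates 1 to 3 and 3558, 3699 and 3915 in LATS1/2-KO libraries 5 to 7, from 929 to 1405 counts and 1838 to 4749 counts. The parental libraries were within 1.02-fold of each other and the knockout libraries within 1.10-fold, and the lowest knockout value was 3.72-fold above the highest parental value. The means were 942 ± 12.4 and 3724 ± 179 scaled counts (SD, n = 3 each), and the fitted log2 fold change was 1.98 (SE 0.10), or 1.99 (SE 0.12) without parental replicate 1.

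IFIT3, which joins IFIT1 and IFIT2 in complexes and stabilises the binding of RNA by IFIT1, followed closely. The parental values were 760, 776 and 834 scaled counts and the LATS1/2-KO values 2890, 2703 and 2631. The knockout library that was highest for IFIT3 was library 5, whereas for IFIT2 it was library 7, and neither gene differed by more than 1.10-fold within a group. The means were 790 ± 39.3 and 2741 ± 134 scaled counts (SD, n = 3 each), with a log2 fold change of 1.79 (SE 0.11), or 1.77 (SE 0.12) without parental replicate 1.

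IFIT1, which recognises RNA whose cap lacks methylation of the first transcribed base, was more variable. Its scaled counts were 455, 607 and 607 in the parental libraries and 1543, 1878 and 2170 in the LATS1/2-KO libraries. Parental replicate 1 was the lowest parental library, at 0.749 times the mean of the other parental replicates. The means were 556 ± 87.9 and 1864 ± 314 scaled counts (SD, n = 3 each), and the log2 fold change was 1.74 (SE 0.20), or 1.62 (SE 0.17) without that replicate. IFIT1 shares 5.19% of the 31-base words of its principal transcript with other genes, mostly with its paralog IFIT1B, and IFIT3 shares 6.53% with several unrelated genes, so a small part of their reads could have been assigned elsewhere.

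DDX58, the RIG-I receptor itself, was a less abundant transcript. It had 175, 179 and 118 counts in the parental libraries and 350, 121 and 306 in the LATS1/2-KO libraries, or 119, 144 and 119 against 262, 244 and 368 scaled counts. Library 7 was the highest of the knockout libraries, and the lowest knockout value was 1.69-fold above the highest parental value. The means were 127 ± 14.6 and 291 ± 67.2 scaled counts (SD, n = 3 each), and the log2 fold change was 1.19 (SE 0.26), or 1.15 (SE 0.27) without parental replicate 1.

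DDX60L, a close paralog of the helicase DDX60, had a similar difference and the widest spread of the 5 higher genes. Scaled counts were 158, 248 and 217 in the parental libraries and 381, 479 and 612 in the LATS1/2-KO libraries. The knockout libraries differed from each other by 1.61-fold and the parental libraries by 1.57-fold, close to the 1.54-fold gap between the nearest libraries of the groups. The means were 208 ± 45.8 and 491 ± 116 scaled counts (SD, n = 3 each), with a log2 fold change of 1.24 (SE 0.28) that was 1.08 (SE 0.24) without parental replicate 1. It shares 1.24% of its 31-base words, all with DDX60.

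OAS1 went the other way. It had 1559, 771 and 539 counts in the parental libraries and 214, 103 and 143 counts in the LATS1/2-KO libraries, which are 1061, 621 and 542 against 160, 207 and 172 scaled counts. Parental replicate 1 was 1.83 times the mean of replicates 2 and 3, yet the lowest parental library was still 2.61-fold above the highest knockout library. The means were 741 ± 280 and 180 ± 24.4 scaled counts (SD, n = 3 each). The log2 fold change was -2.04 (SE 0.32), or -1.70 (SE 0.19) without parental replicate 1.

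Parental replicate 1 thus had the lowest value of its group for IFIT1, IFIT3 and DDX60L and the highest for IFIT2 and OAS1, and its DDX58 value differed from that of replicate 3 by less than 1 scaled count. In the LATS1/2-KO libraries the order also differed between genes, with library 7 highest for IFIT1, IFIT2, DDX58 and DDX60L, library 5 for IFIT3 and library 6 for OAS1.

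In a test of each of the 414 genes with edgeR's quasi-likelihood method, with Benjamini-Hochberg adjustment over 19969 protein-coding genes because the table is a selected list, 7.73% of the table was called, 4.35% as higher and 3.38% as lower. A call needed over 2-fold change and an adjusted p-value below 0.05. IFIT2 and IFIT3, 2 of the 6 genes, were called as higher, and 0 as lower. The balance of the table depended on the scale, with 18 genes higher and 14 lower under the scale used here. The counts were 34 and 4 with TMM and 17 and 1 with median-of-ratios factors. With TMM, IFIT1, IFIT2 and IFIT3 were called, beside 38 of the 414 genes as a whole. DESeq2 called all 6 genes, beside 220 of the 414 as a whole (93 higher, 127 lower). Without parental replicate 1, 24.6% of the table was called, 10.9% as higher and 13.8% as lower, and 4 of the 6 were, namely IFIT1, IFIT2 and IFIT3 as higher and OAS1 as lower. Without any single one of the other 5 libraries, none of the 6 genes and none of the 414 was called, although 275 to 290 of the 414 had an unadjusted p-value under 0.05. Against parental replicates 2 and 3, no gene of the 199 used for the scale had a log2 ratio between -0.999 and 0.999. With all libraries genes of the table fell in that range, such as GADD45A at 0.06. The larger number called without parental replicate 1 therefore cannot be told apart from how the list and the scale were made. Since the genes come from a list made on the same data, these counts describe the table's precision and do not test the genes.

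**Figure D2:**
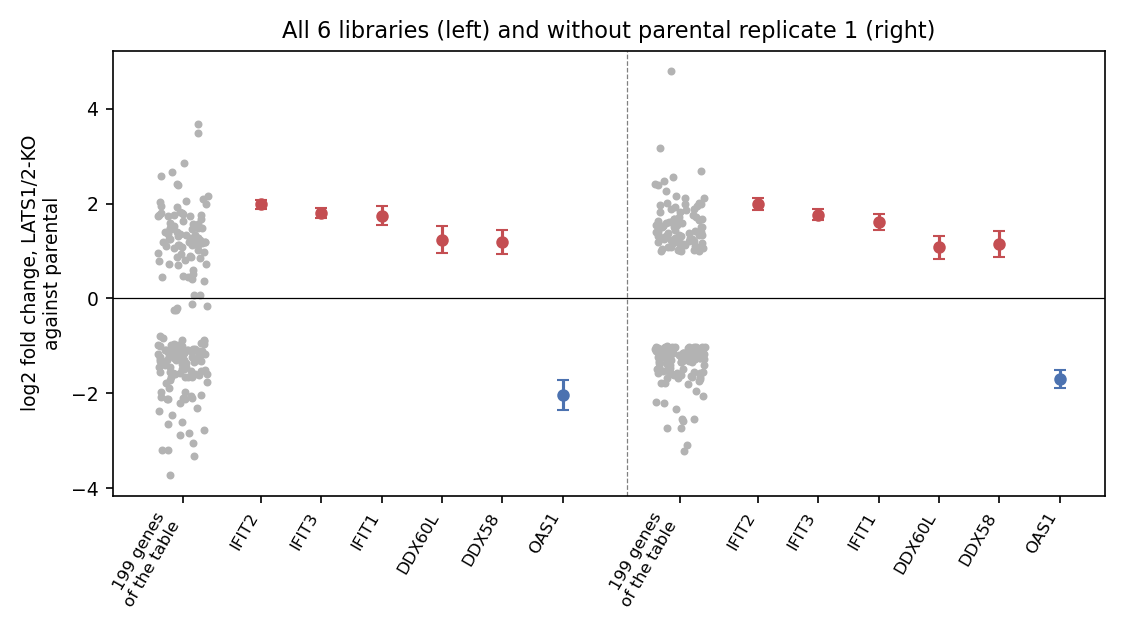
Log2 fold change of LATS1/2-KO against parental cells for each of the 6 genes (error bars, 1 SE of the edgeR fit) beside the 199 genes of the table that had 50 counts or more in each library (grey, 1 point per gene). Values from all 6 libraries stand on the left and values without parental replicate 1 on the right; IFIT2, at 1.98 and 1.99, is the highest of the 6 genes in both, and OAS1, at -2.04 and -1.70, lies among the genes that were lower.

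Among the genes of the table that had 50 counts or more in each library, 84 were higher in LATS1/2-KO cells, with a median log2 fold change of 1.33. IFIT2, IFIT3 and IFIT1 stood 12th, 17th and 22nd by size among them, and DDX60L and DDX58 stood 49th and 52nd. OAS1 was 22nd of 115 genes that were lower, whose median log2 fold change was -1.29. Without parental replicate 1, the ranks were 14th, 24th and 35th of 91 for IFIT2, IFIT3 and IFIT1, 76th for DDX58 and 82nd for DDX60L, so the helicases were then near the small end of a list that holds only changes over 2-fold, and OAS1 was 17th of 108. These genes were thus not the largest changes of the table in either direction.

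Ratios of counts within a library do not depend on how the libraries were scaled. IFIT2 had 0.901, 1.51 and 1.72 counts per OAS1 count in the parental libraries and 22.2, 17.8 and 22.8 in the LATS1/2-KO libraries. The geometric mean of the ratio was 15.7-fold higher in the knockout libraries, or 12.9-fold without parental replicate 1. A pair of interferon-induced genes with similar counts in parental cells was thus very unequal in knockout cells. The same change was 13.8-fold for IFIT3 to OAS1, 13.3-fold for IFIT1 to OAS1, 9.36-fold for DDX60L to OAS1 and 8.97-fold for DDX58 to OAS1, and without parental replicate 1 these values were 11.0, 9.87, 6.73 and 7.11. Within the IFIT family the ratios moved little. IFIT3 to IFIT2 was 0.794, 0.829 and 0.893 in parental and 0.812, 0.731 and 0.672 in LATS1/2-KO libraries. For this ratio the groups overlapped only through parental replicate 1. IFIT1 to IFIT2 was 0.475, 0.648 and 0.650 against 0.434, 0.508 and 0.554, which overlapped only through parental replicate 1. DDX58 to IFIT2 was 0.125, 0.154 and 0.127 against 0.0737, 0.0658 and 0.0940, with every knockout library below every parental one.

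**Figure D3:**
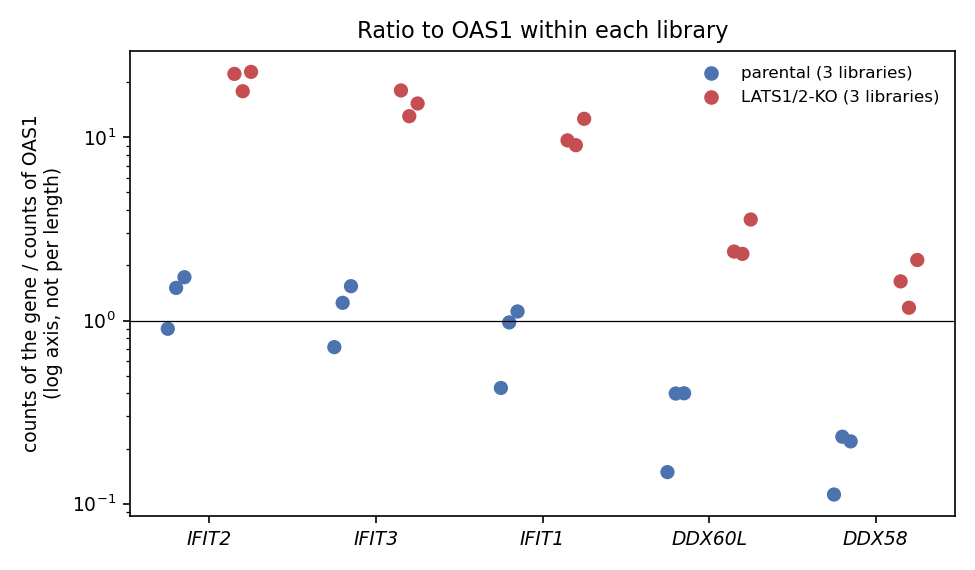
Counts of IFIT2, IFIT3, IFIT1, DDX60L and DDX58 divided by the counts of OAS1 in the same library (log axis, not corrected for gene length), 1 point per library, parental in blue and LATS1/2-KO in red. For each gene the 3 knockout libraries lie above the 3 parental libraries, for IFIT2 at 17.8 to 22.8 against 0.901 to 1.72.

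Per kilobase of the principal transcript, OAS1 had the highest mean level of the 6 genes in parental cells and stood between the IFIT genes and the helicases in LATS1/2-KO cells. In parental cells the levels were 440 ± 166 scaled counts per kb for OAS1, 316 ± 15.7 for IFIT3, 296 ± 46.7 for IFIT1 and 270 ± 3.56 for IFIT2 (SD, n = 3 each). OAS1 and IFIT3, IFIT3 and IFIT1, and IFIT1 and IFIT2 overlapped between libraries, so these neighbours did not differ beyond their spread. The OAS1 libraries were at 630, 369 and 322 scaled counts per kb, above the other 5 genes in replicates 1 and 2 and below IFIT3 and IFIT1 in replicate 3. DDX60L and DDX58 followed at 30.6 ± 6.76 and 29.2 ± 3.36 scaled counts per kb, overlapping each other and far below the rest. In LATS1/2-KO cells IFIT3, IFIT2 and IFIT1 were at 1098 ± 53.6, 1067 ± 51.4 and 991 ± 167 scaled counts per kb, again overlapping. OAS1 was at 107 ± 14.5, and its lowest knockout library, at 95.2, was just above the highest of DDX60L, at 90.3. DDX60L and DDX58 were at 72.4 ± 17.1 and 66.9 ± 15.4 and overlapped. These levels assume that the principal transcript was the one expressed.

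The 3 IFIT genes lie beside each other on the plus strand of chromosome 10 (GRCh38), IFIT2 from 89283694 to 89309276, IFIT3 from 89327894 to 89340971 and IFIT1 from 89392546 to 89406486, with 18.6 kb between the first pair and 51.6 kb between the second. Each has a principal transcript of 2 exons, of 3489, 2496 and 1880 bases in that order. DDX58 is on the minus strand of chromosome 9 from 32455705 to 32526324 (18 exons), DDX60L on the minus strand of chromosome 4 from 168356735 to 168537786 (38 exons), and OAS1 on the plus strand of chromosome 12 from 112906777 to 112933222 (6 exons). The identifiers in the table are ENSG00000185745.10_4 for IFIT1, ENSG00000119922.10_6 for IFIT2, ENSG00000119917.14_4 for IFIT3, ENSG00000107201.10_5 for DDX58, ENSG00000181381.13_5 for DDX60L and ENSG00000089127.13_7 for OAS1.

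Of the other genes of the table, 2 overlap the IFIT genes, and they were looked at after their values had been seen. ENSG00000232110.8_8, annotated as the non-coding RNA AL353751.1 on the same strand as IFIT2 from 89283765 to 89292125, shares 356 exonic bases with IFIT2. It had 172, 378 and 268 counts in parental and 4427, 884 and 2200 counts in LATS1/2-KO libraries, or 230 ± 99.6 against 2581 ± 771 scaled counts (SD, n = 3 each). The groups did not overlap, as for 80% of the table. Its log2 fold change was 3.49 (SE 0.46), or 3.17 (SE 0.30) without parental replicate 1, larger than that of IFIT2 itself. It was not called with all libraries and was called as higher without parental replicate 1. Because of the shared exonic bases, reads of this RNA and of the longer IFIT2 isoform cannot be fully told apart.

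LIPA, the gene of lysosomal acid lipase, spans all 3 IFIT genes on the opposite strand, from 89213569 to 89414557, and shares 65 exonic bases with IFIT2 and none with IFIT1 or IFIT3. It had 2061, 245 and 187 counts in the parental libraries and 507, 294 and 446 in the LATS1/2-KO libraries. Parental replicate 1 was 7.28 times the mean of replicates 2 and 3 in scaled counts, and the log2 fold change turned from -0.25 (SE 0.86) to 1.38 (SE 0.24) when it was left out. IFIT2 in the same replicate was 1.02 times that mean. Whether counting used the strand of the reads is not given in the sources used here. OAS1 likewise shares 92 exonic bases with an antisense RNA, AC004551.1, that was not analysed here.

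**Figure D4:**
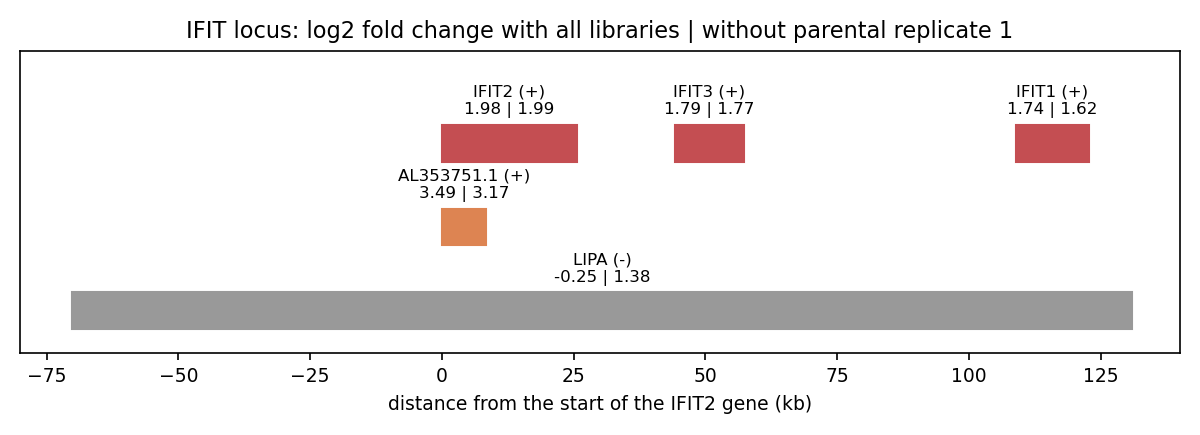
Positions of IFIT2, IFIT3 and IFIT1 (red), of the overlapping non-coding RNA AL353751.1 (orange) and of LIPA (grey) in kb from the start of IFIT2, with strands in brackets and, above each bar, the log2 fold change from all libraries and without parental replicate 1. The 3 IFIT genes have values from 1.74 to 1.98 with all libraries, the overlapping non-coding RNA 3.49 and LIPA, on the other strand, -0.25.

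Of the 52 symbols listed as interferon-induced RNA sensors and effectors, the table held the 6 described here, with a median log2 fold change of 1.49 against -0.35 over all 414 genes. Without parental replicate 1 the medians were 1.38 and 1.17. The table holds 199 genes above 0 and 215 below, so its median can pass from one side to the other when few genes change sign, and the contrast of the medians says little about the 6 genes. Of 35 symbols of interferon signalling, which cover ligands, receptors, kinases and transcription factors, 0 were in the table. The table holds changed genes only, so the remaining genes of both lists were not analysed here, and no statement on their level can be made.

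Antigen presentation genes, many of which also respond to interferon, were mostly lower where they are given here. HLA-B and HLA-C, MHC class I heavy chains, fell, with log2 fold changes of -1.59 (SE 0.11) and -1.44 (SE 0.10), or -1.60 (SE 0.11) and -1.42 (SE 0.11) without parental replicate 1. HLA-F had -1.53 (SE 0.26), the lysosomal thiol reductase IFI30 -0.98 (SE 0.17) and the proteasome subunit PSMB9 0.40 (SE 0.54), and these 3 were not called with all libraries. Without parental replicate 1 they had -1.57 (SE 0.26), -1.09 (SE 0.14) and 1.24 (SE 0.20), and IFI30 was then called as lower. Of 18 YAP/TEAD targets in the table, from a list of 30 symbols, 7 rose, 0 fell and 11 were not called, with a median log2 fold change of 1.58, beside 4.35% of the table called as higher. When parental replicate 1 was left out, 10 rose and the median was 1.69, beside 10.9% of the table called as higher. The YAP/TEAD list was chosen with earlier results of these data known, so these counts do not test it.

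Other genes of the table were ranked by how closely their scaled counts followed each of the 6 genes across the 6 libraries, as the root-mean-square log2 difference after each gene was centred on its parental mean, among 199 genes that had 50 counts or more in each library. With this centring, genes with a like fold change come out close. Closest to IFIT2 were EFEMP1, which encodes an extracellular matrix protein, at 0.0801, the matricellular gene CCN1 at 0.0991 and IFIT3 at 0.162. Closest to IFIT3 were the matrix gene THBS1 at 0.0956, ANKRD33B at 0.151 and CCN1 at 0.156. IFIT1 was followed most closely by the kinase gene PLK2 at 0.0867, the cytokine receptor gene IL7R at 0.173 and the guanine deaminase gene GDA at 0.185.

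DDX58 had as nearest genes C12orf75 at 0.106, the receptor tyrosine kinase gene AXL at 0.123 and the tissue factor gene F3 at 0.127. DDX60L was nearest to C12orf75 at 0.133, the BH3-only gene PMAIP1 at 0.191 and DDX58 at 0.195. OAS1, which departed most among the parental libraries, had the least close neighbours, the actin-severing gene GSN at 0.180, the keratin gene KRT14 at 0.237 and the metalloproteinase inhibitor gene TIMP4 at 0.259.

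Of the markers fixed for cell types, KRT19, an epithelial keratin, was the only one of 10 epithelial symbols in the table, with 26496 to 32635 counts in parental and 5505 to 16722 counts in LATS1/2-KO libraries and a log2 fold change of -1.09 (SE 0.14), not called, or -1.19 (SE 0.14) without parental replicate 1, called as lower. Of the immune, fibroblast and endothelial markers, 8, 7 and 4 symbols, 0 were in the table. The other markers fixed were not analysed here.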

How the data were processed

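Whole-number counts per gene and library were deposited by the authors for 414 genes that passed their own DESeq2 test and fold threshold; the submitters' processing notes also name cutadapt, HISAT2, StringTie and hg19. The authors' fold change and p-value columns and 6 normalized columns were not used. Parental columns were matched by number, whereas the knockout columns (numbered 5 to 7) were matched to their group alone. The supplementary list of the same counts had been read and the scale tried on it before the tests were set, and the 6 genes and all gene lists were chosen with earlier results of these data known.

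Libraries were scaled within a group by the median ratio over 245 parental and 240 knockout genes with at least 50 counts. The scale between groups was the centre of the widest gap (2.00 log2 wide) in the ratios of 199 genes, LATS1/2-KO against parental replicates 2 and 3, because a list of changes over 2-fold leaves a gap around no change. Genes were tested with edgeR 4.0.16 in R 4.3.3 (glmQLFit and glmQLFTest, no covariates), with adjustment over 19969 protein-coding genes, and called where the adjusted p-value was below 0.05 and the log2 fold change exceeded 1 in size. The SE was taken from the log2 fold change and the F statistic (size over the root of F). The procedure was also run on simulated data, but the outcome is not given here and nothing in the results rests on it. Replicates of each group differed beyond sampling noise. Gene positions are from GENCODE version 29 (GRCh38), joined by identifier without version (410 of 414 found). Named genes were the 6 genes, genes of the lists, and for each of the 6 its 3 nearest genes by root-mean-square difference. Alternatives were each library left out, TMM, median-of-ratios and half-sample-mode scaling, DESeq2 1.42.0, a minimum of 10 counts per library, adjustment over the table, no fold threshold and another motif. The summary of the antigen presentation list is not reported here.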

Additional observations from a re-analysis of the deposited data

How the results depend on the processing

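No fold change of the 6 genes turned direction under any alternative run, and 53 of 66 stayed within the spread between replicates. Scaling over the listed genes, which changed genes pull, raised the median gene by 0.67 on the log2 scale with TMM and by 0.52 with median-of-ratios factors. IFIT1, IFIT2, IFIT3, DDX58, DDX60L and OAS1 then had log2 fold changes of 2.41, 2.65, 2.46, 1.87, 1.90 and -1.37 with TMM and of 2.25, 2.5, 2.31, 1.70, 1.74 and -1.49 with median-of-ratios factors. With the half-sample mode IFIT2 had 1.93. With 1 library left out, the ranges were 1.62 to 1.86 for IFIT1, 1.95 to 2.01 for IFIT2, 1.76 to 1.84 for IFIT3, 0.99 to 1.31 for DDX58, 1.05 to 1.39 for DDX60L and -2.23 to -1.70 for OAS1.

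Counts of called genes were less stable. Against 32 of 414 (18 higher, 14 lower), 0 to 102 were called with 1 library left out, the 102 (45 higher, 57 lower) only without parental replicate 1. That larger number cannot be told apart from how the list and the scale were made. Without any other library edgeR called 0, with 275 to 290 genes at an unadjusted p-value under 0.05. Median-of-ratios factors gave 18 (17 higher, 1 lower), TMM 38 (34 higher, 4 lower), the half-sample mode 36 (17 higher, 19 lower), DESeq2 220 (93 higher, 127 lower) and adjustment over the table alone 291 (119 higher, 172 lower), where fewer tests enter. Of the 6 genes, against 2, 0 to 4 were called with 1 library left out and 3 (IFIT1, IFIT2 and IFIT3) with TMM. All 6 were called with DESeq2 and with adjustment over the table alone. Apart from the fewer tests, the cause was not tested. The 8 promoter matches became 9 with a core shortened by its last base and 11 with the looser form.

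No paired analysis was possible because the knockout columns carry numbers that match no replicate number in the labels. Depth limits DDX58, with 118 to 350 counts per library, and OAS1 in the knockout libraries, with 103 to 214.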
